A study of Rattus norvegicus with 6 samples.

Results

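The genes described here are 8 genes of the myelin sheath, chosen by name with earlier results of these data known. The lists of related genes set beside them were chosen in the same way. Mbp, Cnp, Mag, Mog and Cldn11 encode proteins that build or line the sheath. Galc, Ugt8 and Fa2h encode enzymes that make or break down its galactolipids. Every probe set of the array whose platform gene symbol is one of these names was taken, which gave 13 probe sets for 8 of the 14217 genes named on the array. A filter on low signals left 5 probe sets of 4 genes for testing, those of Cnp, Cldn11, Galc and Ugt8. All probe sets of Mbp, Mag, Mog and Fa2h lay below it, as did 1 probe set each of Cldn11 and Ugt8, and these are described by their signals alone.

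The cells were neuronal progenitor cells of the rat cerebral cortex, taken from embryos at day E15.5 and grown on fibronectin with 20 ng/ml bFGF, a growth factor that keeps them dividing. Both groups shared this medium. The 3 vehicle samples received the solvent dimethyl sulfoxide and the 3 corticosterone samples received 1 µM corticosterone, the main glucocorticoid of the rat, each for 48 h. Samples 1 to 3 of either group form 3 couples, and each sample was measured on 1 array; the comparison asks what the hormone did to these transcripts. The preparation is not described as sorted, and the labels do not tell whether each couple is a culture or animal of its own, so p-values measure the spread between these samples, which may be technical.

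Myelin is the stack of membrane that oligodendrocytes wrap around axons in the brain and spinal cord. Mbp encodes the protein that holds its cytoplasmic faces together, Cnp a phosphodiesterase kept in its cytoplasmic channels, Mag and Mog adhesion proteins of its innermost and outermost layers, and Cldn11 the claudin that forms tight junctions between its turns. Much of its lipid is galactosylceramide, made from ceramide by the transferase Ugt8 and 2-hydroxylated by Fa2h, sulphated to sulphatide by Gal3st1, and broken down in lysosomes by Galc. Oligodendrocytes arise from precursors that carry Pdgfra and switch on most myelin genes only after they leave the cell cycle; Cnp appears earlier than the rest.

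The windows of 250 bases before the RefSeq transcription start (rat build GRCr8) are shown for the 3 members that passed the test, so that the letters can be set beside the signals. Capitals mark the inverted CCAAT box ATTGG and the GC box GGGCGG in Cldn11 (chr2:114149540-114149789, minus strand), TCACGTGA in Galc (chr6:123245560-123245809, minus strand), and CTGGCAC, the core of the site of the myelin regulator Myrf, with the GC box in Cnp, read there as CCGCCC on the other strand (chr10:86011254-86011503, plus strand). All motifs were searched on both strands and were picked with these letters in view.
Cldn11: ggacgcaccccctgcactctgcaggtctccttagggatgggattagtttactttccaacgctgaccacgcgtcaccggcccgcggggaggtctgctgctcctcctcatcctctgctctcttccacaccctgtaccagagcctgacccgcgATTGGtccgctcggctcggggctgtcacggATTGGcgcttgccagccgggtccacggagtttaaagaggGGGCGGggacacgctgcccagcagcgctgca
Galc: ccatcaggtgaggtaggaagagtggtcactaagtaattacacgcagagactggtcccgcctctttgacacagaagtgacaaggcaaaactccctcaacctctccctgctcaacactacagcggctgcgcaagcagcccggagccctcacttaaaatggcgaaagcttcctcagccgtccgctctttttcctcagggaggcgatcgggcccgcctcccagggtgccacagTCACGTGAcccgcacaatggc
Cnp: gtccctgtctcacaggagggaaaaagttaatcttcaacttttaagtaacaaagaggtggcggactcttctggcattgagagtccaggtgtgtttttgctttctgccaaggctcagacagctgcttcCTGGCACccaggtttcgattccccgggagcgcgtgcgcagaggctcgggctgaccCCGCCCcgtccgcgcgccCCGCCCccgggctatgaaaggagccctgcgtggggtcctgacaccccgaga

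A window was found for 7 of the 8 members. TCACGTGA, which holds the E-box CACGTG, was in the Galc window 21 bases before the start and in 0.657% of all 33469 windows of this length. Windows were also found for 19 genes from a list of 25 for sphingolipid and galactolipid metabolism. Of these 19 windows 1 held TCACGTGA, that of the sulphatase-modifying enzyme gene Sumf1, 28 bases before its start. Arsa, Psap and Asah1 of that list had no window and were not searched. CTGGCAC was in the windows of Cnp, 124 bases before the start, and of Mag, 94 bases before it, and in 3.78% of all windows. The full palindromic glucocorticoid response element was in none of the members' windows and in 0.012% of all windows. Its half-site AGAACA was in 1 of the 8 windows of members, a second window of Mbp, against 17.5% of all windows. ATTGG was in 2 of the 8 windows of members, against 34.0% of all windows, and GGGCGG in 5 of the 8, against 30.5%. The Sox site core ACAAAG, searched but not marked above, was in 3 of the 8, against 16.3% of all windows. These matches describe letters in a short window only.

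Values are MAS5 signals as deposited, with a trimmed mean of 500.2 on each array. Array medians were 108, 122 and 119 with vehicle and 124, 134 and 125 with corticosterone, higher with corticosterone in each couple. The background signal, set from 27 bacterial control probe sets, was 22.8. The share of probe sets above it was also higher in each couple, at 75.3% to 78.1% and 78.3% to 80.6%. Array to array correlations over probe sets (no independent replicates) ran from 0.968 to 0.984. All 8 neural progenitor markers (such as Nes, Sox2 and Fabp7) were above background on all 6 arrays. The glucocorticoid targets gave a check of the treatment: 6 of 7 rose, among them Per1 from 185 ± 30.4 to 557 ± 51.8 (SD, n = 3 arrays per group, as for each signal below). Tsc22d3 did not pass (log2 fold change −0.05, limma adjusted p = 0.79). Without the couple as a term Per1, Errfi1 and Ddit4 passed, while Fkbp5 (0.23), Sgk1 (0.062) and Klf9 (0.6) did not. Corticosterone changed 1928 of 9910 genes tested (19.5%), 1158 higher (11.7%) and 770 lower (7.77%), at a limma adjusted p under 0.05 with the couple as a term. Over all probe sets tested, 15.9% changed, 9.4% higher and 6.45% lower. Of those changed, 59.3% were higher, but 30.4% when each array was centred on its median, which moved the median log2 fold change to −0.110. In bulk RNA, fewer cells of a type and less RNA per cell cannot be told apart.

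Of the 4 members tested, 2 rose (Cldn11 and Galc), 1 fell (Cnp) and 1 did not pass (Ugt8), against 11.7% of all genes tested higher and 7.77% lower, and with a median log2 fold change of 0.10 against −0.0021 over all genes tested. So few members say nothing about myelin genes as a class. Mbp, Mag and Mog lay below the filter, which was set on the mean over all 6 arrays and not on each group.

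Mbp was measured by 3 probe sets, all below the filter. Its brightest gave signals of 30.2, 38.8 and 25.6 with vehicle and 70.6, 41.0 and 21.8 with corticosterone in couples 1, 2 and 3. The groups overlapped, and the high value was that of couple 1 alone. The other probe sets of Mbp had means of 27.5 ± 12.0 and 37.4 ± 22.9 with vehicle and 30.1 ± 5.47 and 23.6 ± 12.0 with corticosterone. All 3 probe sets had at least 1 array under the background signal.

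Mag, the adhesion protein next to the axon, read 40.6, 42.2 and 65.4 with vehicle and 89.2, 70.5 and 52.8 with corticosterone. It was above background on all 6 arrays but just below the filter (a mean signal of 58.5 against 63.6), and it was higher with corticosterone in couples 1 and 2 and lower in couple 3. Mog, a late marker of the outer myelin surface, gave 28.3, 11.7 and 16.3 with vehicle and 52.4, 22.3 and 2.23 with corticosterone. Only the 2 arrays of couple 1 were above background.

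Of 18 other myelin genes with a probe set, 11 were above background on all 6 arrays and 4 at or under it on all of them. Mal, Opalin and Mobp were among the dim ones. Mal, a proteolipid of compact myelin, read 5.12 ± 2.84 with vehicle and 6.43 ± 0.969 with corticosterone, and Opalin, an oligodendrocyte surface protein, 9.31 ± 8.09 and 11.9 ± 15.1. The brightest probe set of Mobp, a basic protein of compact myelin, gave 6.62, 3.88 and 4.51 with vehicle and 42.7, 12.0 and 10.7 with corticosterone; 1 of these 6 values was above background. Sox10 (25.7 ± 12.2 and 11.1 ± 2.48) and Myrf (16.7 ± 14.3 and 15.7 ± 16.9), the transcription factors that drive myelin genes, were near background too.

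Cnp was far above background on every array. Its leading probe set read 2542, 1856 and 2653 with vehicle and 1782, 1719 and 2191 with corticosterone. The signal was lower in each couple, though the groups overlapped because the vehicle array of couple 2 was low. Cnp fell, with a log2 fold change of −0.30 ± 0.08 (SE; 95% interval −0.48 to −0.11; limma adjusted p = 0.032), on a scale of log2(signal + 28.55) that understates changes of low signals. Its second probe set gave 586, 417 and 629.9 with vehicle and 378, 439.7 and 659 with corticosterone. It was lower in couple 1 only and did not pass (−0.15, interval −0.45 to 0.14, adjusted p = 0.49), and without couple 1 its value was 0.07. With both probe sets averaged Cnp did not pass (−0.23, adjusted p = 0.16), nor did the leading one without couple 1 (−0.19, 0.24) or couple 3 (−0.31, 0.077).

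Cldn11 read 42.2, 68.2 and 60.3 with vehicle and 154, 214 and 82.0 with corticosterone. All corticosterone arrays were above all vehicle arrays, which was also so for 14.8% of genes tested. The ratio within a couple was 3.66, 3.14 and 1.36. Cldn11 rose by 1.00 ± 0.23 (log2 fold change and SE; 95% interval 0.50 to 1.51; limma adjusted p = 0.012). At signals this low the size depends on the constant added before the log2. It was 1.31 with a constant of 1 and 0.58 with 121.9, the median of all values (limma adjusted p = 0.014 and 0.013). The rise in couple 3 was the smallest, and the call ended without couple 1 (0.82, adjusted p = 0.070) or couple 2 (0.84, 0.15). The second probe set was above background on 1 vehicle and 1 corticosterone array, with means of 16.6 ± 11.6 and 13.8 ± 13.9, and gives no reading of the gene.

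Of 13 other claudins and tight junction genes with a probe set, only Cldn12 and Tjp1 were bright enough to test, and 0 passed in limma (Tjp1 alone, 1 gene, was past an unadjusted p of 0.05). Cldn12 gave −0.15 and Tjp1, a scaffold of junctions, 0.19 (adjusted p = 0.33 and 0.079). Cldn5, the claudin of endothelial cells, had signals from 2.26 to 28.1 with vehicle and from 26.4 to 57.2 with corticosterone.

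Cldn11 is also made by cells of the meninges, so their markers are set beside it. Of 18 meningeal, pericyte and fibroblast markers 17 had a probe set, 7 were tested and 4 rose: Fbln2 (1.58), Crabp2 (1.07), Col1a2 (0.99) and Igfbp2 (0.48). The share higher over all genes tested was 11.7%. With no block Igfbp2 alone passed (limma adjusted p = 0.029), and Fbln2 (0.057), Crabp2 (0.17) and Col1a2 (0.7) did not. Crabp2 did not pass without couple 1 (0.079), nor Col1a2 without couple 2 (0.12). The leading probe set of Col1a2 read 6.42, under background, on the vehicle array of couple 1. Its second probe set did not pass (0.38, limma adjusted p = 0.25). The summed signal of the 17 markers ran from 12536 to 15157 with vehicle and from 18899 to 20885 with corticosterone, most of it Igfbp2 (12940.1 ± 1112 and 18030.2 ± 972). Of the 17, 6 were above background on all arrays and 1, Vtn, was at or under it on all of them. Dcn, Pdgfrb and Slc6a13 did not exceed 34.5 on any array in their leading probe sets, while Col1a1 ran from 31.2 to 344 and Aldh1a2 from 36.3 to 156. Foxc1, below the filter, read 17.4, 20.4 and 13.6 with vehicle and 45, 23.6 and 34.5 with corticosterone, with no overlap. Both arrays of couple 2 stood apart in the fibroblast genes: Lum was at 136 and 143 there and at most 2.66 on the other arrays, and Col3a1 at 577 and 928 there and at most 94.1 elsewhere. The part of such cells in the signal of Cldn11 was not tested; without couple 2 its fold change was 0.84.

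**Figure D1:**
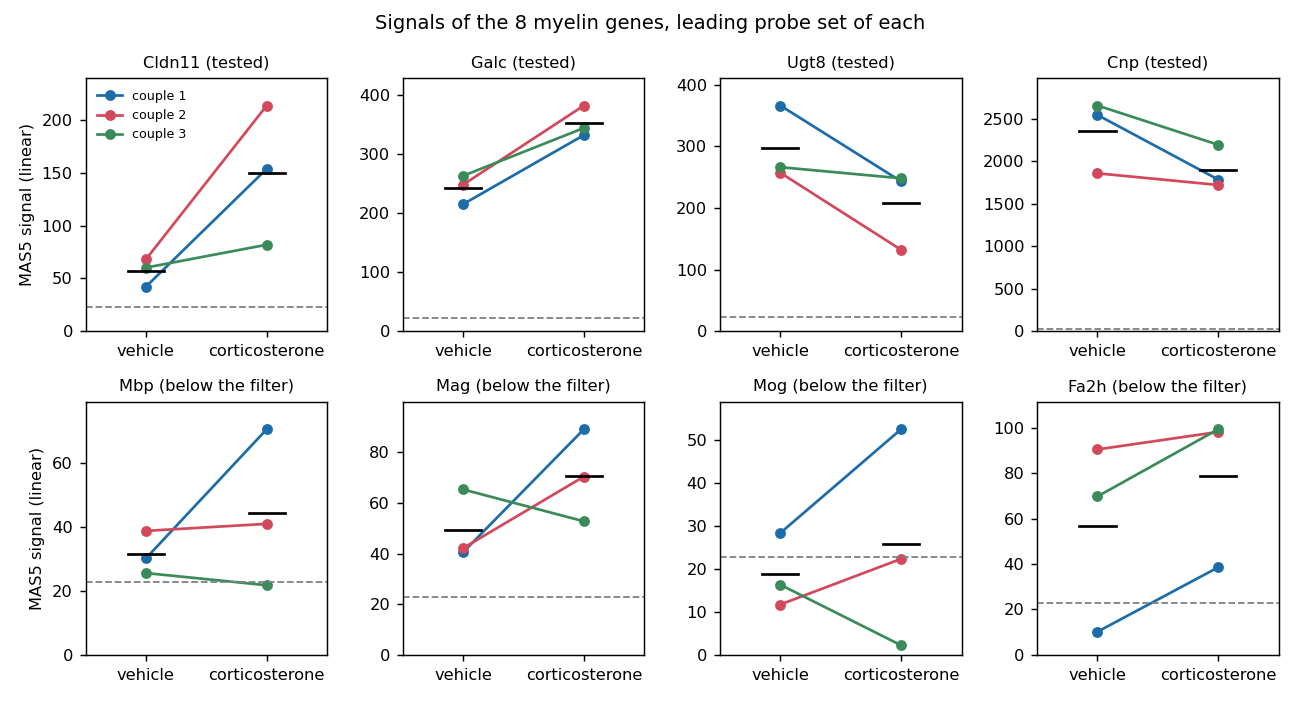
MAS5 signal (linear axis from 0) of the leading probe set of each of the 8 genes, with a line for each couple from its vehicle to its corticosterone array, black bars for group means and a dashed line at the background signal of 22.8. Cldn11 and Galc were higher and Ugt8 and Cnp lower with corticosterone in all 3 couples, while Mbp, Mag and Mog differed in direction between couples.

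Galc, the lysosomal enzyme that removes galactose from galactosylceramide, read 215, 248 and 263 with vehicle and 332, 382 and 344 with corticosterone. The groups did not overlap, and the ratio was 1.55, 1.54 and 1.31 in couples 1, 2 and 3. Galc rose by 0.50 ± 0.12 (log2 fold change and SE; 95% interval 0.23 to 0.76; limma adjusted p = 0.016). The call ended without couple 1 (0.46, adjusted p = 0.076) or couple 2 (0.46, 0.13).

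Ugt8, the transferase that makes galactosylceramide, read 366, 257 and 266 with vehicle and 243, 132 and 248 with corticosterone. The groups did not overlap, with corticosterone lower, as for 11.4% of genes tested. The difference was small in couple 3, where the ratio was 0.932 against 0.665 and 0.514 in couples 1 and 2. It did not pass (−0.49 ± 0.15, SE; 95% interval −0.82 to −0.15; limma adjusted p = 0.053). It did pass with quantile normalization (−0.56, 0.035), with each array centred on its median (−0.59, 0.022) and without couple 3 (−0.68, 0.017). The other probe set of Ugt8 was at or under background on all 6 arrays.

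Fa2h, the hydroxylase that gives myelin galactolipids their 2-hydroxy fatty acids, was below the filter by a small margin (a mean signal of 60.4). It gave 10.2, 90.5 and 69.8 with vehicle and 38.6, 98.2 and 99.4 with corticosterone. It was higher with corticosterone in 3 of 3 couples, but the groups overlapped and the arrays of couple 1 were the lowest of each group.

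The other enzymes of this lipid pathway were read from a list of 25 genes for sphingolipid and galactolipid metabolism, of which 18 were tested, 4 rose, 2 fell and 12 did not pass (median 0.18). Over all genes tested, 11.7% rose and 7.77% fell. Gal3st1, which sulphates the product of Ugt8, fell: its signals were 765, 305 and 906 with vehicle and 179.5, 96.1 and 585 with corticosterone. It was lower in each couple, but the groups overlapped because the vehicle level of couple 2 was less than the corticosterone level of couple 3. The log2 fold change was −1.32 ± 0.19 (SE; limma adjusted p = 0.001). The fatty acid elongase Elovl6 fell by 0.25 on the log2 scale in its leading probe set (adjusted p = 0.024), which did not pass without couple 2 (0.21) or couple 3 (0.057). Its other probe set fell by 0.53 (5.4e-04), with no overlap between the groups. Without the couple as a block neither Gal3st1 (0.29) nor Elovl6 (0.22) passed.

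The genes that rose encode lysosomal proteins, or the factor that activates one class of them. Arsa, the sulphatase that returns sulphatide to galactosylceramide, read 297, 300.1 and 411 with vehicle and 534, 676 and 521 with corticosterone (0.74 ± 0.14, SE; limma adjusted p = 0.0043). Psap, the precursor of the saposins that present lipids to Galc and Arsa, rose from 2310.1 ± 156 to 3506 ± 454 (0.59, 3.8e-04). Asah1, the acid ceramidase, rose by 0.34 (0.045), and its second probe set by 0.52 (0.0021). Sumf1, which activates sulphatases such as Arsa, rose by 0.37 (0.039). A second probe set of Arsa did not pass (0.40, 0.13). Arsa and Asah1 did not pass without couple 2 (0.56 and 0.18, adjusted p = 0.069 and 0.34), Asah1 did not without couple 3 (0.064), and Sumf1 did not with any couple left out (0.068 to 0.2). With no block Psap passed (0.038), while Arsa (0.061), Asah1 (0.28) and Sumf1 (0.27) did not.

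Ceramide supply and the competing routes did not pass. Cers2, the ceramide synthase of very long acyl chains, read 1388 ± 78.5 and 1392 ± 78.4 (log2 fold change 0.00, 95% interval −0.17 to 0.18), and Ugcg, which makes glucosylceramide, 192 ± 25.4 and 194 ± 3.27 (0.02, interval −0.29 to 0.33). Intervals of this width do not show that the levels were alike. Not all of these genes were flat. Degs1, of ceramide supply, gave 0.22 (interval 0.07 to 0.38, limma adjusted p = 0.057). Sgms1, of the sphingomyelin route, gave 0.36 (0.07 to 0.65, 0.095). Both were higher in 3 of 3 couples. Kdsr (0.15), Cers4 (0.04), Cers5 (−0.07) and Cers6 (−0.05) had intervals that held 0.

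Set out by role, with Galc and Ugt8 included, the 8 tested genes of breakdown held 5 that rose and 0 that fell in limma (0 lower at an unadjusted p under 0.05), with log2 fold changes from 0.21 to 0.74 and a median of 0.35. The 12 tested genes of synthesis held 0 that rose (2 higher at an unadjusted p under 0.05) and 2 that fell, with a median of 0.01 (−0.06 with quantile normalization and −0.10 with median centring). For comparison, 11.7% of all genes tested were higher and 7.77% lower. All 8 fold changes of breakdown genes were above 0, and they also were with quantile normalization and median centring (medians 0.33 and 0.25). Of the 12 synthesis genes, 7 were above 0, with 5 under quantile normalization and 3 under median centring. The roles were assigned after the values had been seen, and whether the roles differ was not tested. Without couple 2 only 1 of the 8 breakdown genes passed, as with no block, and without couple 1 there were 3. Within couples 1, 2 and 3, the change of Galc exceeded that of Ugt8 by 1.10, 1.40 and 0.44 on the log2 scale (mean 0.98 ± 0.49, SD).

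**Figure D2:**
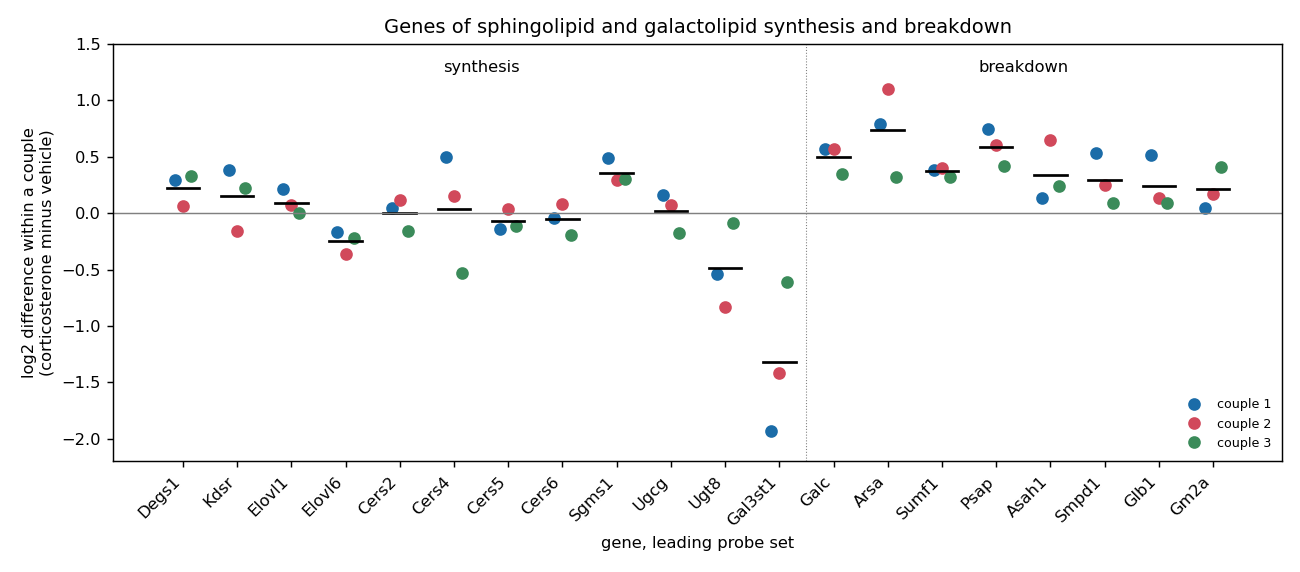
Log2 difference within each couple (corticosterone minus vehicle, dots) and its fitted value (black bar) for the 20 tested genes of sphingolipid and galactolipid metabolism, leading probe sets, with synthesis left and breakdown right of the dotted line. The breakdown genes lie above 0 in all 3 couples. Of the 12 synthesis genes, 7 have a fitted value above 0, while Ugt8 and Gal3st1 lie below it in all 3 couples.

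Further genes of myelin and of maturing oligodendrocytes moved both ways. Of 21 listed, 18 had a probe set, 11 were tested, 5 rose, 1 fell and 5 did not pass (median 0.20). Among all genes tested the shares were 11.7% higher and 7.77% lower. Car2, a carbonic anhydrase of oligodendrocytes and astrocytes, read 408, 378 and 491 with vehicle and 1245, 1049 and 825 with corticosterone. It rose by 1.22 ± 0.14 (SE; limma adjusted p = 2.0e-04), and its second probe set by 0.87 (0.0081). Plekhb1 rose by 0.85 (6.1e-04) and Aspa, which splits N-acetylaspartate for lipid synthesis in oligodendrocytes, by 0.89 (0.012), from 49.6 ± 11.7 to 118 ± 33.3.

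Pllp, a tetraspan protein of myelin called plasmolipin, rose from 53.2 ± 14.2 to 117 ± 31.8 (log2 fold change 0.82, limma adjusted p = 0.029), and the tetraspanin gene Cd9 rose by 0.50 (0.030). Omg, the oligodendrocyte myelin glycoprotein that neurons make as well, fell: its signals were 334, 142 and 252 with vehicle and 127, 118 and 124 with corticosterone (−0.77, 0.017). For Gpm6b, a membrane glycoprotein of neurons and glia, the leading probe set did not pass (0.14, 0.13) and the other rose by 0.51 (2.6e-04). Tspan2 had −0.12 (0.53) in its leading probe set and fell by 0.41 in the other (0.045). Aspa, Pllp and Cd9 did not pass without couple 1 or without couple 2 (adjusted p from 0.075 to 0.23), and Omg did not without couple 1 or 3 (0.13 and 0.068). Of the 6 genes called, Car2 alone passed with no block (0.012).

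Several genes that rose are shared with astrocytes, so their markers are given too. Of 9 astrocyte markers 6 were tested and 5 rose, among them S100b (1.80) and Aldoc (1.60), against 11.7% of all genes tested higher. The summed signal of the 9 ran from 17144 to 24818 with vehicle and from 33262 to 40193 with corticosterone. Most of it was Slc1a3 (13306 ± 2131 and 18561 ± 1027) and Gja1 (5668 ± 1655 and 10939 ± 2156). Aqp4 (10.3 ± 7.62 and 30.4 ± 8.58), Slc1a2 (15.6 ± 12.5 and 22.8 ± 3.17) and Aldh1l1 (38.5 ± 15.6 and 86.8 ± 6) were below the filter. Gfap, a defining marker, was at 41.6, 57.9 and 51.2 with vehicle and 60.9, 176 and 59.8 with corticosterone (0.58, limma adjusted p = 0.13). With no block 2 of the 5 passed, S100b and Aldoc, while Slc1a3 (0.08), Gja1 (0.052) and Atp1b2 (0.42) did not. The part of astrocytes in the rise of Car2 and the other genes that rose was not tested.

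Neuronal markers are set beside Omg and Cnp, which fell. Of 8 tested, 2 fell, Tubb3 (−0.52, limma adjusted p = 0.034) and Nefm (−0.80, 0.024), and 6 did not pass. Over all genes tested 7.77% fell. Of the 6, Dcx (−0.31), Map2 (−0.22) and Stmn2 (−0.03) lay below 0, and Rbfox3 (0.25), Snap25 (0.20) and Syp (0.09) above it. The median of the 8 was −0.13. The summed signal of the markers ran from 10282 to 11277 with vehicle and from 7613 to 11236 with corticosterone, most of it Map2 (8957 ± 584 and 7770.2 ± 1622). With no block neither Tubb3 nor Nefm passed (0.21 and 0.17), and without couple 2 neither did (0.14 and 0.073). The part of neurons in the values of Omg and Cnp was not tested.

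**Figure D3:**
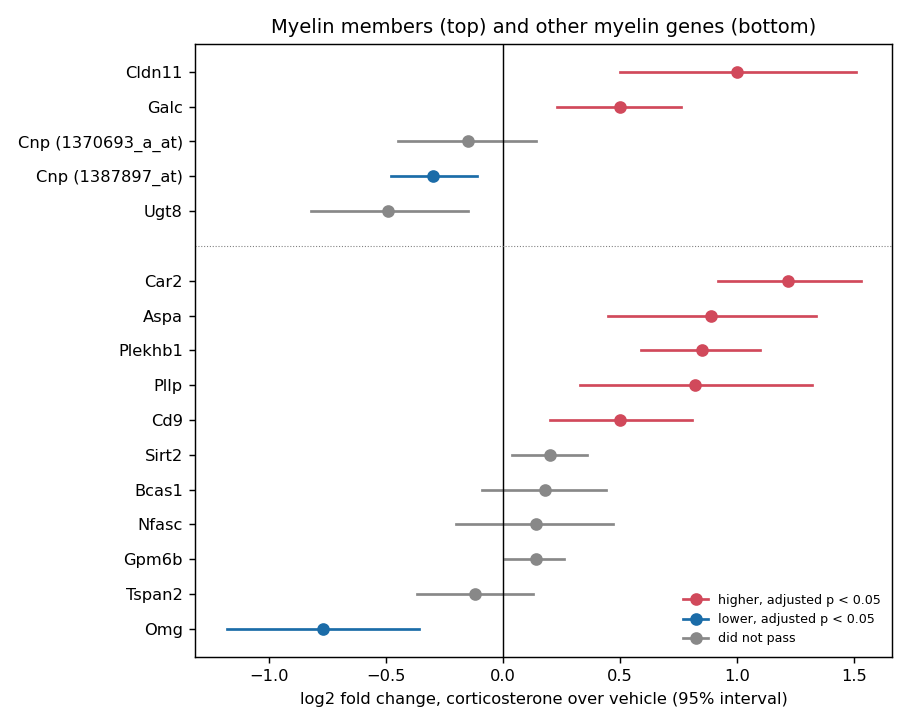
Fitted log2 fold change (dot) with its 95% interval (line) for the 5 tested probe sets of the 8 myelin genes (top) and the leading probe sets of 11 other myelin genes (bottom), red where higher, blue where lower and grey where the adjusted p did not pass. Cldn11 and Galc lie to the right of 0 with Car2, Aspa, Plekhb1, Pllp and Cd9, and Cnp to the left with Omg.

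Early genes of the oligodendrocyte lineage were above the filter in most cases, and more of them fell than rose. Of 7 precursor genes tested, 1 rose (Tmem100, 2.05), 4 fell and 2 did not pass (median −0.76), against 11.7% of all genes tested higher and 7.77% lower. Pdgfra, the receptor that defines precursors, read 2892, 538 and 2970.2 with vehicle and 633, 214 and 1000 with corticosterone (−1.64, limma adjusted p = 2.9e-05). C1ql1 (−1.57), Lhfpl3 (−0.76) and Rlbp1 (−0.78) fell too. Cspg4, the NG2 proteoglycan of precursors, had 362 ± 141 and 325 ± 201 (−0.22, 0.46). With no block Lhfpl3 and Tmem100 passed (0.032 and 0.0099), while Pdgfra (0.28), C1ql1 (0.12) and Rlbp1 (0.1) did not.

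Of 6 lineage transcription factors tested, 1 fell and 5 did not pass, against 7.77% of all genes tested lower. Myt1, a zinc finger factor, fell from 1505 ± 446 to 551 ± 263 (−1.45, limma adjusted p = 8.4e-05; 0.054 with no block). Olig1 had 18443 ± 1543 and 17472 ± 2793 (−0.09, 0.35), Olig2 1037 ± 254 and 784 ± 154 (−0.38, 0.066) and Nkx2-2 455 ± 86.4 and 434 ± 33.2 (−0.05, 0.80). Among vehicle arrays that of couple 2 was the lowest for Pdgfra, C1ql1, Gal3st1, Myt1 and Cnp alike.

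Genes of peripheral myelin give a view of Schwann cells. Pmp22, which many cell types make, rose by 0.48 (limma adjusted p = 4.6e-04; 0.45 with no block), from 2883 ± 940.4 to 4057 ± 1418. Pmp2 was below the filter, at 4.61, 10.9 and 2.02 with vehicle and 78.4, 70.0 and 29.4 with corticosterone, so that its groups did not overlap. The defining gene Prx had a log2 fold change of −0.06 (0.89), and Egr2 −0.48 (0.075).

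Over the 6 arrays, the members that were tested formed opposed pairs: the Pearson correlation of log2 signals was 0.88 between Cldn11 and Galc and 0.69 between Cnp and Ugt8, and from −0.88 to −0.63 between the pairs. The arrays share treatments and couples, so these values are descriptions. The 3 genes most like Cldn11 among 9909 were Pgm2, Robo2 and Hopx (0.999, 0.993 and 0.991), and those most like Galc were Itgb5, Pea15 and Lztr1 (0.999, 0.996 and 0.996). For Cnp they were Tex30, Stmn3 and Slc8a3 (0.992, 0.991 and 0.986), and for Ugt8 Zfp764l1, Cbr3 and Rpl14 (0.995, 0.990 and 0.990). With 6 arrays such values are common: 574 genes had a correlation over 0.9 with Cldn11 and 185 with Cnp.

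The calls of the members rest on the pairing. With no block for the couple, limma passed 0 of the 4 members (adjusted p from 0.12 to 0.39; 417 probe sets of all passed there).

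**Figure D4:**
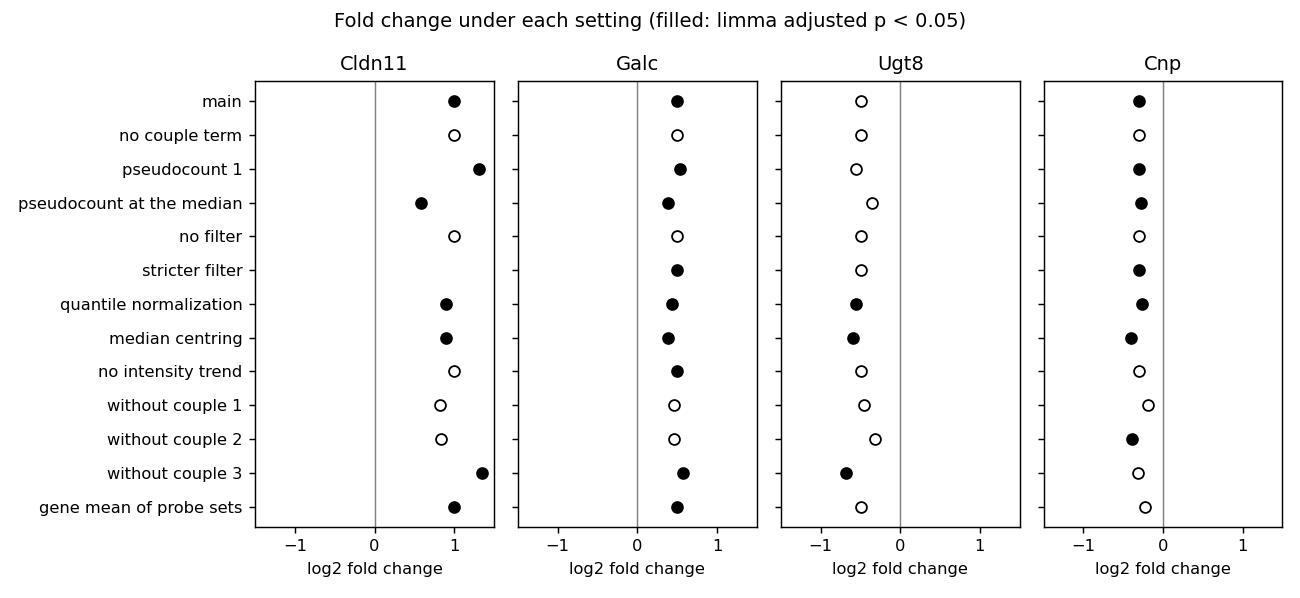
Fitted log2 fold change of the leading probe sets of Cldn11, Galc, Ugt8 and Cnp under each setting of the processing, filled where the limma adjusted p was under 0.05 and open where it was not. Directions held in all settings shown, while each of the 4 genes has both filled and open points; Cldn11 was not tested under the stricter filter.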

How the data were processed

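The 6 arrays (3 couples of a vehicle and a corticosterone sample) carry 31099 probe sets. The values are MAS5 signal intensities as deposited by the authors, per the submitters' processing notes; its version and settings: not given in the sources used here. With 2% trimmed from each end, the mean intensity was 500.2 on each array, so a change of total RNA would not be seen. Of the probe sets, 57 are controls, 20826 have 1 gene symbol, 436 have several and 9780 have none; only those with 1 symbol were named.

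Signals were turned into log2(signal + 28.55), the constant being the 25th percentile of all values. The 40% of probe sets with the lowest means (signal under 63.6) were left out, and 18625 were fitted in limma 3.58.1 (R 4.3.3) with group and couple as terms, an intensity trend and Benjamini-Hochberg adjustment over all of them. A gene is represented by its brightest tested probe set. Deviations from group means correlated at 0.57, 0.52 and 0.35 for arrays of the same couple number in the labels and from −0.48 to 0.00 for other pairs, so the couple was kept as a block. The background signal is the 95th percentile of 27 control sets. With 3 arrays per group, their number limits the precision. Figures used Python 3.11.15 and matplotlib 3.10.9.

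The members and gene lists were chosen with earlier results of these data known. Named genes are all members, list genes that passed, a few well known genes of myelin and its lineage, and the 3 genes most correlated with each tested member. Other listed genes named although they did not pass were chosen after their values were seen. Alternatives were the pairing, pseudocount, filter, scaling, variance trend, probe set choice and leaving out each couple; those for the lipid roles were added after seeing the data.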

Additional observations from a re-analysis of the deposited data

How the results depend on the processing

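The fitted directions of the leading probe sets of Cldn11, Galc, Ugt8 and Cnp held in every alternative in which they were tested, while their calls did not. With no block for the couple, 417 probe sets passed (362 higher, 55 lower) in place of 2953, 0 members were higher and 0 lower, and Cldn11 (1.00), Galc (0.50) and Cnp (−0.30) missed the threshold; their fold changes are the same by construction. There 1 other myelin gene was higher and 0 lower, 1 lipid gene higher and 0 lower, 0 transcription factors lower and 1 precursor gene lower.

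With no filter 1862 probe sets changed (624 lower); 0 members were higher and 0 lower (Cldn11 1.00, Galc 0.50, Cnp −0.30), as were 2 and 0 other myelin genes and 2 and 1 lipid genes. More probe sets enter the adjustment there. The stricter filter, which drops Cldn11, left 1 member higher, 3 other myelin genes higher and 0 lower, and 0 precursor genes higher. With no intensity trend 1262 changed (960 higher, 302 lower), 1 member was higher and 0 lower (Cldn11 1.00, Cnp −0.30), with 3 and 0 other myelin genes and 1 and 1 lipid genes. Quantile normalization and median centring each gave 2 members lower, since Ugt8 passed (−0.56 and −0.59). Median centring gave 2846 probe sets lower, 2 lipid genes higher and 3 transcription factors lower. The mean of probe sets gave 0 members lower (Cnp −0.23). Except where stated, the cause was not tested.

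Leaving out 1 couple gave 1192 to 2807 probe sets changed (800 to 1704 higher, 392 to 1103 lower), 0 to 2 members higher and 0 to 1 lower. Fold changes ran from 0.82 to 1.35 for Cldn11, 0.46 to 0.57 for Galc, −0.39 to −0.19 for Cnp (second probe set −0.27 to 0.07) and −0.68 to −0.31 for Ugt8. Counts were 2 to 5 other myelin genes higher, 0 to 1 other myelin genes lower, 1 to 3 lipid genes higher, 1 to 2 lipid genes lower and 1 to 2 transcription factors lower.

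Values near 0 turned: Cers2 with median centring (−0.10) and over left-out couples (−0.05 to 0.08); Ugcg with quantile normalization (−0.06), median centring (−0.09) and left-out couples (−0.06 to 0.12); Nkx2-2 (−0.15 to 0.01) and Cspg4 (−0.40 to 0.10) over left-out couples.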
